A study of Rattus norvegicus with 15 samples.

Results

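Collateral arteries of the spontaneously hypertensive rat (SHR) were compared with control arteries of the same strain, on 8 of the 15 arrays of the study. The 8 arrays were taken by their labelled strain and vessel type: 4 were SHR control and 4 were SHR collateral mesenteric arteries. SHR is an inbred rat strain that develops high blood pressure without treatment, and mesenteric arteries supply the gut. A collateral artery is one that carries extra flow because neighbouring arteries were occluded, and the control arteries were labelled only as control. The labels give no sex, age, time after occlusion or number of animals per array, and do not state that each array is a separate animal. The p-values therefore cover the spread between these samples alone, which may be technical. The other 7 arrays were 3 control and 4 collateral arteries of the normotensive Wistar Kyoto rat (WKY), which entered the fit and are used below for comparison.

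When a neighbouring artery is blocked, blood is diverted into the remaining vessels and their endothelium senses a higher shear stress. In a growing collateral the endothelium releases nitric oxide and attracts monocytes, smooth muscle cells leave their contractile state and divide, and the matrix around them is degraded and rebuilt. The series title asks what lies behind poorer collateral growth in SHR. The comparison of SHR collateral with SHR control arteries asks which genes differ in the vessel that carries the extra flow in this strain.

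The values are microarray signals, 1 per probe set (a group of short probes for 1 transcript) and array, and differences are log2 collateral minus control, so 1 stands for a doubling and a negative value for a lower signal in collaterals. Of 8740 probe sets that were not array controls, 6512 were tested, and 3825 genes were represented among them. Smooth muscle actin Acta2 lay between 43348 and 144948 on the 8 arrays, which placed it between the 99.6th and the 99.9th percentile of its own array. The fibroblast proteoglycan Dcn lay between percentiles 99.5 and 99.9. Of the endothelial genes, Pecam1 lay between percentiles 58.7 and 68.9, Nos3 between 40.5 and 74.3, and Vwf between 26.0 and 67.7. Wall muscle, adventitia and endothelium were thus all represented, the endothelium by dimmer signals. In whole vessel segments, fewer cells of a type and less RNA per cell cannot be told apart.

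SHR collateral 3 stood apart from the other SHR arrays. Over the tested probe sets it correlated with them at a Spearman coefficient of 0.496 to 0.657, while the other 7 correlated with each other at 0.805 to 0.899. The mean signal of the 9 spike-in probe sets, which read RNA added in fixed amounts, was 354583 on this array and 26654 to 121280 on the other 7. The 20th percentile of its signals lay at 171, and those of the other 7 at 43.4 to 83.3. The lowest spike-in mean and the lowest 20th percentile were both on SHR collateral 4. That array correlated best, of all pairs of the 15 arrays, with WKY collateral 1 (Spearman 0.931), and the pair had similar spike-in means (26654 and 27183). The mean log2 3'/5' ratio over actin and Gapdh, which reads RNA integrity, was 1.85 ± 0.17 (SD, n = 4) in collaterals and 2.09 ± 0.28 (n = 4) in controls (two-sided exact permutation p = 0.171, where 0.0286 is the smallest possible). Without SHR collateral 3 the collateral ratio was 1.84 ± 0.21 (n = 3, exact permutation p = 0.257). Because of these values the differences are given with and without SHR collateral 3.

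**Figure D1:**
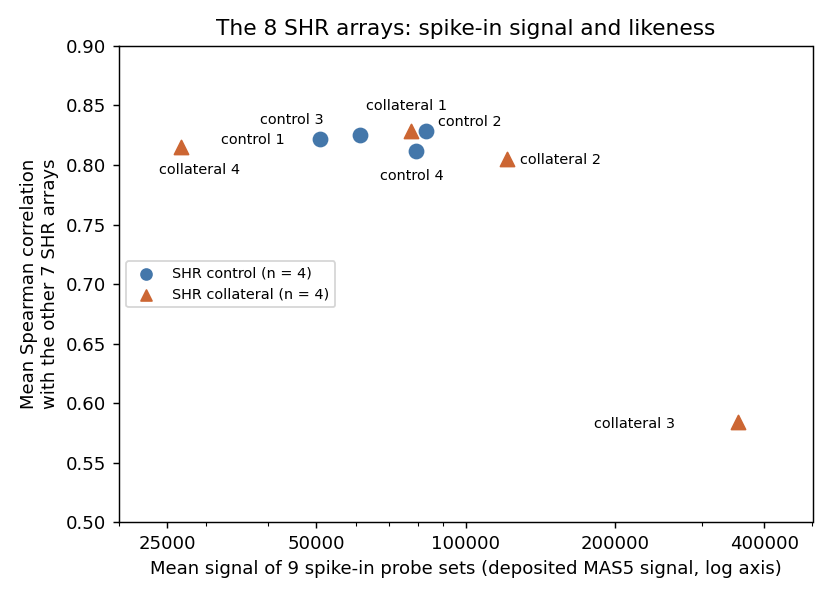
Mean signal of 9 spike-in probe sets (x, log axis) against the mean Spearman correlation with the other 7 SHR arrays (y), with 1 point for each SHR array. SHR collateral 3 lies alone at 354583 and 0.584, and SHR collateral 4 has the lowest spike-in mean, 26654.

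The collateral difference depended on how bright a probe set was, and this came with SHR collateral 3. When the tested probe sets were put into 4 equal groups of 1628 by mean signal, the median difference over all 8 arrays was 0.33 for the dimmest, then 0.20 and 0.06, and -0.15 for the brightest. On SHR collateral 3 alone the medians against the control mean ran from 1.38 to -0.56. SHR collateral 4 ran the other way, from -0.43 to 0.02, and SHR collaterals 1 and 2 lay between -0.01 and 0.28. Without SHR collateral 3 the 4 medians lay between -0.04 and 0.02. The spread between arrays followed the same array: the median SD of log2 signal was 0.51 in controls, 0.83 in collaterals and 0.56 in collaterals without SHR collateral 3.

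**Figure D2:**
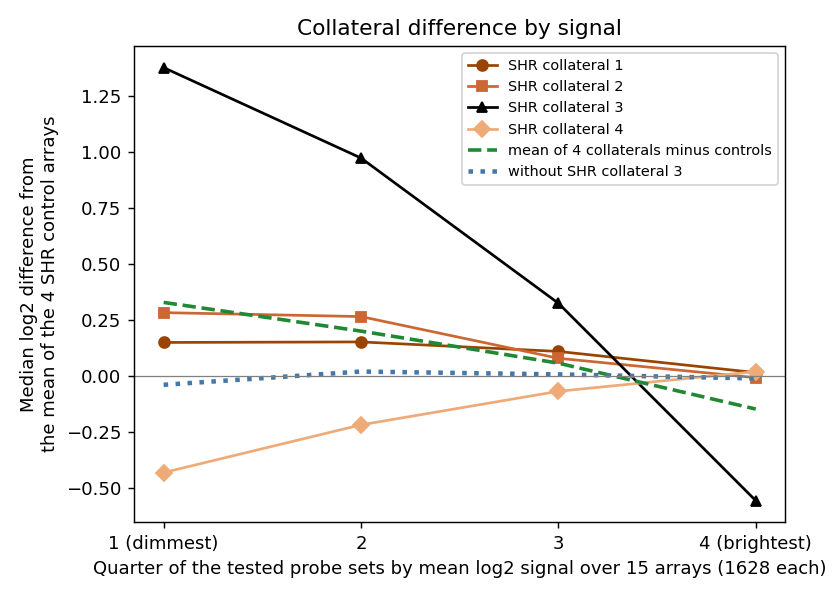
Median log2 difference from the mean of the 4 SHR control arrays (y) in 4 groups of 1628 probe sets ordered by mean signal (x), for each SHR collateral array and for their mean with and without SHR collateral 3. The line of SHR collateral 3 drops from 1.38 to -0.56, while the mean without it stays between -0.04 and 0.02.

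No probe set passed. With limma and Benjamini-Hochberg adjustment over 6512 probe sets, 0 (0%) had an adjusted p under 0.05, the smallest being 0.949. Unadjusted p-values under 0.05 were found for 135 probe sets higher in collaterals (2.07%) and 110 lower (1.69%), 245 together against 325.6 expected by chance. Groups did not overlap, with each collateral value above or below each control value, for 59 higher (0.906%) and 53 lower (0.814%). Without SHR collateral 3, 0% passed again (smallest adjusted p 0.999488), with 97 higher (1.49%) and 134 lower (2.06%) at the unadjusted threshold, and 106 (1.63%) higher and 148 (2.27%) lower without overlap. The split between higher and lower depended on scaling: 55.1% of the 245 were higher, against 43.1% with quantile normalization and 39.4% with equal array medians, which moved the median of all probe sets from 0.06 to -0.08. Leaving out SHR collateral 4 instead gave 455 higher and 303 lower, still with 0 passing (smallest adjusted p 0.225). Without SHR control 2 the lower count was 72, and without SHR collateral 1 it was 187. The 110 probe sets with an unadjusted p under 0.05 in both fits made up 44.9% of the first 245 and 47.6% of the 231 without SHR collateral 3, and 0 of the 245 turned sign without it. Both fits share all other SHR arrays, so a kept sign among probe sets selected by p was nearly fixed in advance. The median standard error was 0.50, and 0.47 without SHR collateral 3. The genes below are therefore described by their values, and none of them is a called difference.

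**Figure D3:**
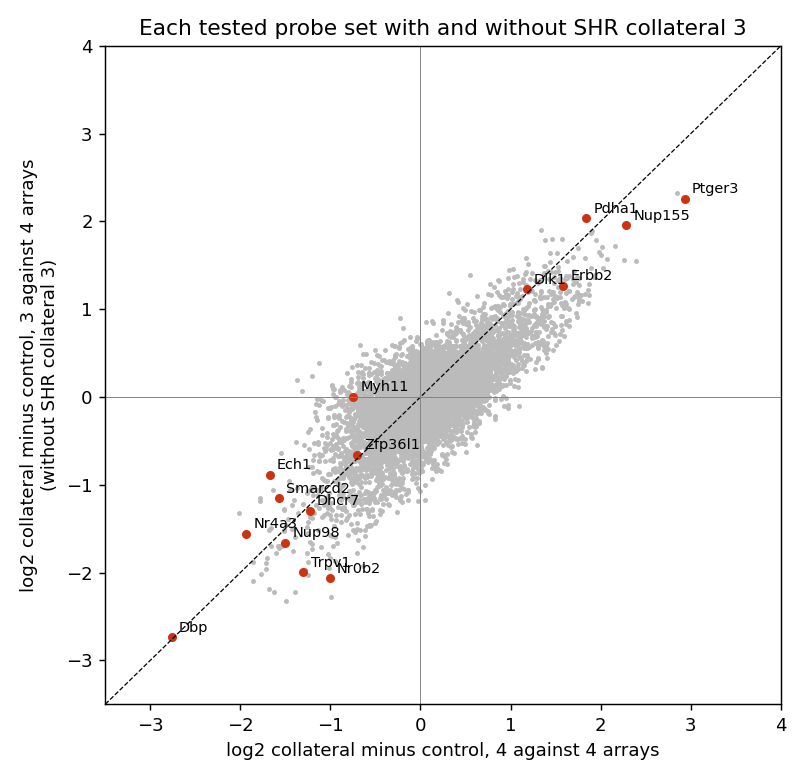
Log2 collateral minus control over 4 against 4 arrays (x) and without SHR collateral 3 (y), with 1 point for each of 6512 probe sets, genes of the text in red and equality as a dashed line. Dbp lies at -2.76 and -2.74, close to that line, while Myh11 lies at -0.74 and 0.00, off it.

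Among probe sets lower in all collaterals than in any control, the largest difference of the named genes was that of Dbp, a clock-controlled transcription factor. Its control signals were 826, 1181, 1940.1 and 1486, and its collateral signals were 113, 105, 182 and 618. The groups did not overlap, with SHR collateral 4 nearest to the controls. The log2 difference was -2.76 ± 0.82 (limma SE), and -2.74 ± 0.89 without SHR collateral 3. In what follows each difference is given with its limma SE, and the value in brackets after it is without SHR collateral 3. A further Dbp probe set gave -0.70 (-1.44), the same direction. Of the 9 tested clock genes, 5 lay above 0 and 4 below, with a median of 0.01 (-0.03 without SHR collateral 3), beside 0.01 and -0.02 over all 3825 genes.

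Smarcd2, a subunit of the SWI/SNF chromatin remodelling complex, had control signals of 1746, 1921, 2001 and 1563. On the collateral arrays it had 974, 379, 251 and 1442, a wide range below closely spaced controls. The difference was -1.57 ± 0.42, and -1.15 ± 0.35 without SHR collateral 3. Nup98, a nuclear pore protein, showed the same closely spaced controls at 721, 859, 792 and 797. Its collateral signals were 158, 170.4, 383 and 582, a difference of -1.51 ± 0.46 (-1.66 ± 0.47 without SHR collateral 3). Other Nup98 probe sets gave 0.85 (0.29) and 0.33 (0.26), the opposite direction. Itga7, the laminin-binding integrin of muscle cells, gave 5181, 5739, 6646 and 6958 in controls and 4143, 2668, 1837 and 4518 in collaterals. That is a difference of -0.98 ± 0.28 (-0.73 ± 0.23), while its other probe sets lay at -0.07 (-0.21) and -0.05 (-0.27). Zfp36l1, which binds AU-rich messages and promotes their decay, had 8464, 11467, 9285 and 6279 in controls and 5795, 5202, 4907 and 5496 in collaterals, -0.70 ± 0.21 (-0.66 ± 0.20), with its other probe set at -0.57 (-0.12).

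Several metabolic and signalling genes also had collaterals below all controls. Gda, guanine deaminase, gave 65605, 89376, 96838 and 80204 in controls and 64006, 49209.6, 22335 and 51443 in collaterals. SHR collateral 3 was the lowest, and the difference of -0.91 ± 0.31 became -0.59 ± 0.23 without it, with its other probe sets at -0.75 (-0.44) and 0.10 (-0.72). Ech1, a mitochondrial and peroxisomal enzyme of fatty acid oxidation, gave 2826, 2785, 6130.4 and 2987 in controls and 2064, 1222, 211 and 2607 in collaterals. Here SHR collateral 3 carried much of the size, -1.68 ± 0.55 with it and -0.89 ± 0.31 without. The same held for the taurine transporter Slc6a6, at -1.20 ± 0.42 and -0.71 ± 0.32, and for the complex I subunit Ndufs8, at -0.98 ± 0.36 and -0.56 ± 0.26, whose other probe sets gave 0.04 (0.26) and 0.26 (-0.04). Differences were similar in both fits for the Wnt antagonist Sfrp4, at -1.60 ± 0.62 and -1.78 ± 0.65, for the sterol hydroxylase Cyp27a1, at -1.52 ± 0.58 and -1.28 ± 0.60, and for the interferon regulatory factor Irf3, at -1.12 ± 0.43 and -1.05 ± 0.46. The other Cyp27a1 probe set lay at 0.44 (-0.03). The G protein subunit Gng11 lay at -0.75 ± 0.26 and -0.51 ± 0.21.

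The genes with collaterals above all controls often had low control signals. Dlk1, a Notch ligand relative that holds precursor cells undifferentiated, had control signals of 179, 307, 159 and 266. Its collateral signals were 485, 741, 449.9 and 377, and SHR collateral 3 was within the range of the others. The difference was 1.18 ± 0.40, and 1.23 ± 0.41 without SHR collateral 3. Akap11, an anchor for protein kinase A, gave 601, 785, 609 and 850.0 in controls and 1050.2, 1010.2, 1548 and 1825 in collaterals, 0.90 ± 0.30 (0.83 ± 0.30). Slc22a13, an organic anion transporter, had 74.7, 65.0, 169 and 78.1 in controls and 351, 362, 329 and 194 in collaterals, 1.74 ± 0.55 (1.70 ± 0.59). For these 3 genes the size changed little without SHR collateral 3.

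In another set of higher genes SHR collateral 3 was the highest array. Erbb2, a receptor tyrosine kinase of the epidermal growth factor receptor family, gave 139, 153, 196 and 222 in controls and 485, 473, 1010.1 and 322 in collaterals, 1.58 ± 0.48 (1.27 ± 0.47 without SHR collateral 3). Ptger3, a prostaglandin E2 receptor, gave 75.6, 23.6, 32.1 and 82.2 in controls and 136, 542, 1453 and 149 in collaterals, 2.94 ± 0.81 (2.26 ± 0.77), and its other probe set lay at -0.44 (-0.26). Nup155, a nuclear pore protein, gave 43.0, 79.4, 146 and 30.7 in controls and 323, 221, 602 and 202 in collaterals, 2.29 ± 0.64 (1.96 ± 0.66). A further 5 of this kind were the protease inhibitor A2m at 1.55 ± 0.48 (1.20 ± 0.46), the milk casein gene Csn1s1 at 2.01 ± 0.63 (1.61 ± 0.62), the progestin receptor Paqr7 at 1.62 ± 0.56 (1.36 ± 0.58), the phospholipid enzyme Pisd at 1.35 ± 0.47 (0.87 ± 0.41) and the sympathetic enzyme Dbh at 1.76 ± 0.79 (1.17 ± 0.78). The other A2m probe sets lay at 1.50 (1.02), -0.27 (0.03), 0.50 (0.66) and 0.59 (0.18), and the other Pisd probe set at 0.48 (0.06). For Ubtf, a factor of ribosomal RNA transcription, the difference was 1.49 ± 0.49 (1.37 ± 0.51), and for the potassium channel subunit Kcnf1 it was 1.91 ± 0.67 (1.89 ± 0.71). Some controls lay below the 20th percentile of their own array, 2 each for Ptger3, Nup155 and Kcnf1 and 1 each for Csn1s1 and Slc22a13, so those folds rest on signals near the bottom of the scale.

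**Figure D4:**
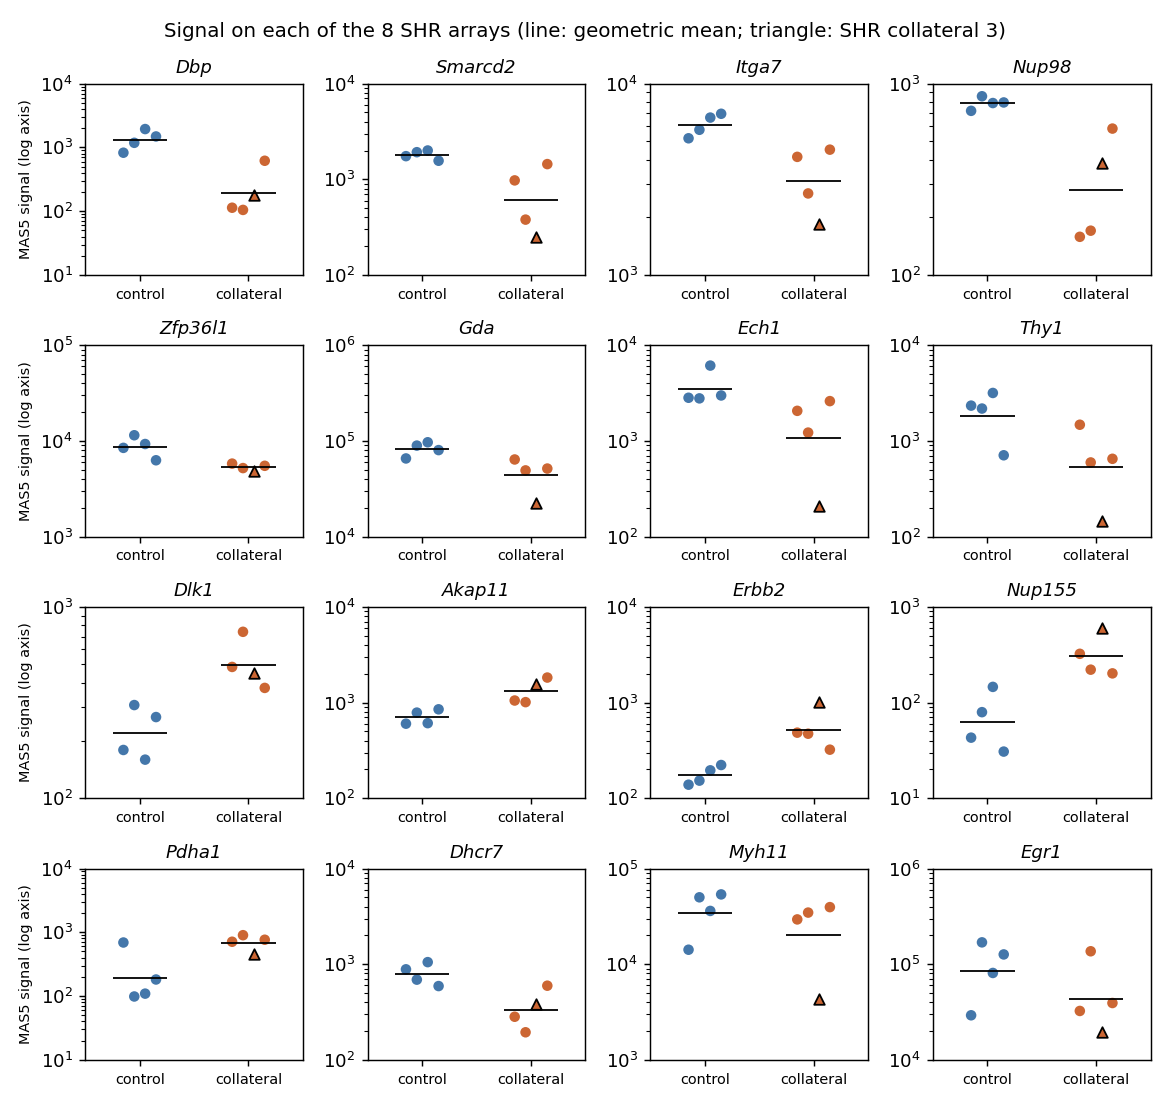
Deposited signal (log axis) on each of the 4 SHR control and 4 SHR collateral arrays for 16 genes, with the geometric mean as a line and SHR collateral 3 as a triangle. For Dbp the collaterals reach 618 and the controls start at 826, while for Myh11 the triangle at 4334 lies below all other arrays.

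Some genes separated the groups only when SHR collateral 3 was left out. Trpv1, a cation channel of sensory nerves, gave 402, 392, 361 and 315 in controls, and 119, 127, 631 and 51.1 in collaterals. The third collateral value exceeded all controls, and without it the difference was -2.00 ± 0.57, against -1.30 ± 0.66 with it. Nr0b2, an orphan nuclear receptor that represses other receptors, was also highest on the third collateral array, with 329.5, 444, 204 and 357 in controls, 75.6, 95.2, 1446 and 62.7 in collaterals, -2.07 ± 0.62 without that array and -1.01 ± 0.83 with it. Its other probe sets gave 0.16 (-0.17) and 0.63 (-0.01), with the value without that array in brackets. For the peptidase Anpep the values were -2.22 ± 0.64 without and -1.39 ± 0.76 with SHR collateral 3, for the acrosomal protease Acr -1.44 ± 0.41 and -0.77 ± 0.55, and for the phosphatase inhibitor Ppp1r1a -0.93 ± 0.26 and -0.79 ± 0.28. Other Anpep probe sets lay on the other side of 0, at 0.53 (0.12) and 0.57 (0.31), and the other Ppp1r1a probe set at -0.48 (-0.60). Among the higher ones, Pdha1, a subunit of pyruvate dehydrogenase, gave 692, 98.5, 109 and 182 in controls and 711, 901, 455 and 764 in collaterals, 2.04 ± 0.66 without and 1.84 ± 0.62 with the array. Its other probe set gave -0.18 (0.31). Cdc42, a small GTPase of cell shape and migration, gave 0.84 ± 0.26 and 0.67 ± 0.28, the polyol enzyme Sord 1.79 ± 0.57 and 1.38 ± 0.59, and the lectin Reg3g 1.90 ± 0.60 and 1.34 ± 0.65. The other Cdc42 probe sets gave 0.07 (0.46), 0.14 (0.36) and -0.49 (-0.09), and the other Sord probe set -0.33 (-0.44).

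Contractile smooth muscle genes lay mostly below 0 with SHR collateral 3 and were balanced without it. Of 20 tested members 16 were below 0, with a median of -0.36, and without that array 9 were below 0, with a median of 0.02. Over all genes the medians were 0.01 and -0.02, with 50.6% and 47.8% above 0. The brightest of the 4 signal groups had medians of -0.15 and -0.01, with 31.7% and 48.3% above 0. Lists of bright genes, such as this one, were not tested against equally bright genes. Myh11, the smooth muscle myosin heavy chain, had 14163, 50003, 36026 and 53624 in controls and 29376, 34619, 4334 and 39474 in collaterals, where the third collateral array was the lowest of the 8. Its difference of -0.74 ± 0.55 became 0.00 ± 0.36, and its other probe sets disagreed, at 1.70 (1.43) and -0.99 (-0.12). Tagln, an actin-binding protein of contractile muscle, gave -0.46 ± 0.40 and 0.03 ± 0.28, and Acta2 gave -0.30 ± 0.37 and -0.08 ± 0.34. Their other probe sets lay at -0.17 (0.15) for Tagln and -0.27 (0.18) and -0.27 (0.25) for Acta2. Kcnma1, the large-conductance calcium-activated potassium channel, lay the other way at 1.73 ± 0.61 and 1.31 ± 0.61, but its other probe set gave 0.64 (-0.01).

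Fibroblast markers lay mostly below 0 in both fits. Of 11 tested members 10 were below 0 (median -0.61), and 9 without SHR collateral 3 (median -0.24). These markers are bright, and they were not tested against equally bright genes. In the brightest of the 4 signal groups 31.7% and 48.3% were above 0, against 9.09% and 18.2% of these markers. Their summed signal was 372783 to 551455 on control arrays and 287530 to 470063 on the collateral arrays, so the sums overlapped. The lowest and highest collateral sums were not on SHR collateral 3. Their mean log2 signal just failed to overlap. It was 13.65 to 14.12 on control arrays, 12.73 on SHR collateral 3 and 13.39 to 13.63 on the other collaterals. The same values were taken for 39 lists, so a separation this narrow in some list can arise by chance. The surface protein Thy1 gave 2339, 2180.3, 3173 and 708 in controls and 1477, 596, 145 and 651 in collaterals. Its difference was -1.78 ± 0.57 (-1.15 ± 0.46 without SHR collateral 3), and its other probe set lay at 0.58 (0.41). Dcn gave 73156, 115661, 119634 and 78388 in controls and 71419.9, 57965, 80239.8 and 43922 in collaterals, -0.61 ± 0.29 (-0.74 ± 0.26), with its other probe sets at -0.61 (-0.04), -0.43 (-0.11) and -0.52 (-0.31). For Igfbp6, which binds insulin-like growth factor II, the difference was -0.68 ± 0.29 (-0.83 ± 0.29), and for the collagen-binding Fmod it was -1.19 ± 0.46 (-0.86 ± 0.44), with the other Fmod probe set at -0.12 (-0.63).

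Matrix genes leaned the same way, with 22 of 27 below 0 (median -0.19), and 16 of 27 without SHR collateral 3 (median -0.15). These are bright genes too, with 18.5% and 40.7% above 0 in the 2 fits. In the brightest of the 4 signal groups the shares were 31.7% and 48.3%, with medians of -0.15 and -0.01. Whether the list differs from equally bright genes was not tested. Tnc, a matrix glycoprotein of remodelling tissue, was on the other side, with 859, 213, 589.8 and 326 in controls and 276, 2166, 2815 and 926 in collaterals. Its groups overlapped, at 1.37 ± 0.62 (0.92 ± 0.61 without SHR collateral 3), and its other probe set gave 1.02 (1.20). Matrix proteases and their inhibitors were balanced, 11 above and 13 below 0, with medians of -0.01 in both fits. The gelatinase Mmp2 gave 1969, 2889, 3790.1 and 2072 in controls and 1805, 1531, 2449 and 1319 in collaterals, -0.58 ± 0.28 (-0.75 ± 0.26). Its other probe set was on the other side of 0, at 0.76 (0.61). The cathepsin inhibitor Cst3 gave -0.80 ± 0.28 (-0.82 ± 0.29), with its other probe set at -0.43 (-0.43), and the metalloproteinase inhibitor Timp2 -0.48 ± 0.24 (-0.40 ± 0.23).

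Endothelial markers had a median of 0.25 over 11 members with 8 above 0, and of 0.00 with 6 above 0 without SHR collateral 3. Their summed signal was 6322 to 7073 on control arrays, 12291 on SHR collateral 3 and 5335 to 9380 on the other collaterals. Esm1, a proteoglycan of activated endothelium, gave 642, 1384, 963 and 1884 in controls and 2018, 2924, 1854 and 1573 in collaterals. It was 0.85 ± 0.39 higher, and 0.90 ± 0.42 without SHR collateral 3, with 1 control above the lowest collateral. The adhesion molecule Icam2 lay at 1.26 ± 0.57 (0.95 ± 0.58). Leukocyte adhesion molecules had medians of 0.28 and 0.10, with 8 of 12 above 0 in both fits. For the 39 chemokines, cytokines and receptors the median was 0.29 with 24 above 0, and 0.03 with 22 above 0 without SHR collateral 3. Ccl2, which recruits monocytes, gave 17612, 12530.4, 6859 and 3671 in controls and 12768, 18868, 27037 and 11432 in collaterals. The groups overlapped widely at 0.94 ± 0.43 (0.70 ± 0.43), and its other probe set gave 1.11 (0.71). The cytokines Il3 at 1.57 ± 0.74 (1.05 ± 0.74) and Il5 at 1.61 ± 0.72 (0.87 ± 0.63) were highest on SHR collateral 3, and the other Il3 probe set gave 0.24 (-0.65).

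Genes that set vessel tone showed no common direction. The nitric oxide and cGMP list had 13 of 27 above 0 (median -0.06) and 10 without SHR collateral 3 (median -0.13). Gucy1a1, a subunit of the nitric oxide sensor, gave 2202, 4251, 2340.3 and 6470.0 in controls and 2460.5, 1568, 799 and 3459.9 in collaterals, -0.93 ± 0.42 (-0.54 ± 0.37). The natriuretic peptide gene Nppa lay at 1.28 ± 0.51 (0.84 ± 0.48). In the renin-angiotensin and kallikrein list 6 of 12 were above 0 (median 0.10), and 5 without SHR collateral 3 (median -0.09). Agtr1a, the main angiotensin II receptor of vessels, gave 2289, 2141, 1565 and 837 in controls and 1728, 255, 623 and 1262 in collaterals, -1.05 ± 0.55 (-0.95 ± 0.59), with its other probe sets at -0.23 (-0.20) and -0.71 (-0.89). The list of prostanoid, endothelin and other vasoactive genes had medians of 0.07 and -0.06 over 40 members. Among them were the dilator peptide Adm at -1.43 ± 0.61 (-1.50 ± 0.64) and the phospholipase Pla2g2a at -0.79 ± 0.33 (-0.89 ± 0.34). Ion channels had medians of 0.02 and 0.05 over 45 members, with the chloride transporter Clcn3 at -1.04 ± 0.47 (-0.41 ± 0.31).

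Growth genes were divided as well. Of 32 angiogenic growth factors and receptors 20 were above 0 (median 0.16, but -0.01 with quantile normalization), and 17 without SHR collateral 3 (median 0.01). Besides Erbb2, Met, the hepatocyte growth factor receptor, gave 128, 52.7, 124 and 89.7 in controls and 364, 208, 1143 and 121 in collaterals, 1.78 ± 0.81 (1.17 ± 0.80). The TGF-beta and BMP list had medians of -0.06 and 0.03 over 24 members, with the ligand Tgfb3 at -0.79 ± 0.44 (-0.33 ± 0.36) and its other probe set at -1.29 (-0.55). For the 14 genes of the IGF system the medians were -0.14 and -0.02. Cell cycle genes had a median of 0.17 with 23 of 33 above 0, and of 0.20 with 21 above 0 without SHR collateral 3. Their summed signal overlapped, at 100664 to 125077 on control arrays, 73354 on SHR collateral 3 and 84624 to 136803 on the other collaterals. The G1 cyclin Ccnd2 lay at -0.55 ± 0.25 (-0.32 ± 0.20), with its other probe set on the other side of 0 at 0.03 (0.12), and the growth arrest gene Gadd45a, named after its values were seen, at 0.93 ± 0.38 (0.65 ± 0.36). Other Gadd45a probe sets gave 0.60 (0.68), 0.42 (0.13) and 0.32 (-0.22).

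Immediate early genes, which code for transcription factors and regulators made within minutes of a stimulus, lay below 0 for 27 of 34 members in both fits. Their median was -0.25, and -0.22 without SHR collateral 3. The arrays varied widely within each group: Egr1 gave 29235, 169090.0, 80961 and 126461 in controls and 32451, 136447, 19438 and 39276 in collaterals. Its difference was -0.98 ± 0.54 (-0.60 ± 0.52), control 1 lay below 3 of the 4 collaterals, and its other probe sets gave -0.84 (-0.62), -0.40 (-0.48) and 0.12 (-0.26). Nr4a3, an orphan nuclear receptor, gave 423, 12314, 1045 and 3829 in controls and 263, 2115, 257 and 687 in collaterals, -1.93 ± 0.78 (-1.56 ± 0.82), and its other probe set lay on the other side of 0, at 0.62 (0.87). The AP-1 subunit Fosl2 lay at -1.03 ± 0.41 (-0.96 ± 0.42) and Fos at -0.51 ± 0.42 (-0.52 ± 0.45), with other probe sets at -0.16 (-0.49) for Fosl2 and -0.36 (-0.21) and -0.97 (-0.69) for Fos. Crem, a cAMP-responsive regulator, lay above 0 at 1.18 ± 0.45 (1.28 ± 0.47), with its other probe sets at 0.11 (0.30), 0.39 (0.43) and -0.09 (-0.60). The NF-kB, interferon and STAT factors had medians of -0.17 and -0.13 over 24 members.

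Of the metabolic lists, that of fatty acid oxidation lay mostly below 0 in both fits. Fatty acid oxidation and ketone genes were below 0 for 22 of 27 members (median -0.39), and for 19 without SHR collateral 3 (median -0.22). Their summed signal was 39816 to 59311 on control arrays, 32656 on SHR collateral 3 and 32732 to 53322 on the other collaterals. Acadm, the medium-chain acyl-CoA dehydrogenase, gave 743, 1240.4, 581 and 1338 in controls and 837, 190.3, 46.4 and 1311 in collaterals. Its difference of -1.55 ± 0.72 became -0.63 ± 0.52, and the thiolase Acaa2 gave -0.72 ± 0.32 (-0.47 ± 0.28). Respiratory chain and ATP synthase genes were below 0 for 25 of 33 members (median -0.21), and for 18 without SHR collateral 3 (median -0.02). Of these bright genes 24.2% and 45.5% were above 0, against 31.7% and 48.3% in the brightest of the 4 signal groups. Their difference from equally bright genes was not tested. Atp5f1e, an ATP synthase subunit, gave 11987, 15062, 16108 and 14661 in controls and 9075, 12571, 8478 and 8996 in collaterals, -0.57 ± 0.21 (-0.51 ± 0.19). Ndufv3 of complex I lay at -0.92 ± 0.40 (-0.38 ± 0.25). Atp5po and Cox8a, named after their values were seen, lay at -0.78 ± 0.34 (-0.32 ± 0.20) and -0.50 ± 0.22 (-0.39 ± 0.19). Other probe sets lay at -0.29 (-0.53) for Atp5f1e, -0.29 (-0.25) for Ndufv3, -0.29 (-0.30) for Atp5po and 0.05 (-0.18), -0.24 (-0.20) and -0.25 (-0.22) for Cox8a. Glycolysis genes had a median of -0.18 with 16 of 24 below 0, and of 0.00 with 11 below 0 without SHR collateral 3.

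Sterol genes were split: 9 of 16 were above 0 in both fits, with medians of 0.11 and 0.19, but -0.11 with quantile normalization of all arrays. Dhcr7, which makes cholesterol from its last precursor, gave 884, 689, 1051 and 591 in controls and 282, 194, 382 and 596 in collaterals. That is -1.23 ± 0.39 (-1.29 ± 0.41), with its other probe set at -0.09 (-0.08), and the regulator Srebf1 lay at -1.25 ± 0.53 (-1.28 ± 0.55). Idi1, an early enzyme of the same route, had collaterals of 736, 695, 919 and 1142 against controls of 559.7, 591, 694 and 579.9, which just failed to overlap, at 0.50 ± 0.29 (0.47 ± 0.29). Nuclear receptors had a median of 0.18 over 25 members and of -0.13 without SHR collateral 3. Thyroid hormone receptor Thra lay at -0.77 ± 0.35 (-0.38 ± 0.26), with other probe sets at 0.18 (-0.36) and -0.14 (-0.37), and the bile acid receptor Nr1h4 at 1.45 ± 0.68 (0.86 ± 0.64).

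Among stress and defence genes, detoxification enzymes were below 0 for 22 of 35 members (median -0.10), and for 30 of 35 without SHR collateral 3 (median -0.20). The glutathione transferase Gstt2 gave 1096, 1526, 3076 and 1859 in controls and 1076, 286, 755 and 1729 in collaterals, -1.14 ± 0.46 (-1.12 ± 0.49), and its other probe set gave -0.81 (-0.46). Oxidant sources and antioxidant enzymes had medians of -0.22 and -0.02 over 27 members, with the peroxidase Gpx1 at -0.66 ± 0.31 (-0.25 ± 0.19) and mitochondrial Sod2 at 0.79 ± 0.39 (0.42 ± 0.33). ER chaperones and unfolded protein response genes were above 0 for 10 of 17 members (median 0.17), and for 14 of 17 without SHR collateral 3 (median 0.28). Cytosolic heat shock proteins had medians of -0.12 and 0.11 over 22 members. Cytosolic ribosomal proteins were below 0 for 34 of 37 members (median -0.18), and for 22 of 37 without SHR collateral 3 (median -0.07). These are bright genes, with a mean log2 signal of 13.95 to 14.13 on control arrays. Over all 8 arrays 8.11% of them were above 0, against 31.7% in the brightest of the 4 signal groups (median -0.15). Without SHR collateral 3 the shares were 40.5% and 48.3%, with a median of -0.01 for that group. Whether the list differs from equally bright genes was not tested. Complement, clotting and acute phase genes had medians of -0.14 and -0.17 over 32 members. Lbp, which binds bacterial lipopolysaccharide, gave 648, 1191, 798 and 945 in controls and 852, 194, 269 and 471 in collaterals, -1.20 ± 0.42 (-1.03 ± 0.43). The complement protease C1s lay at -0.82 ± 0.39 (-0.64 ± 0.40) and the fibrinogen chain Fga at 1.71 ± 0.72 (1.14 ± 0.70). The other Fga probe set gave 0.07 (-0.47). MHC and antigen processing genes had medians of 0.19 and 0.01 over 22 members, with the IgG receptor Fcgrt at -0.61 ± 0.24 (-0.55 ± 0.23) and its other probe sets at -0.05 (0.02) and -0.50 (-0.09).

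**Figure D5:**
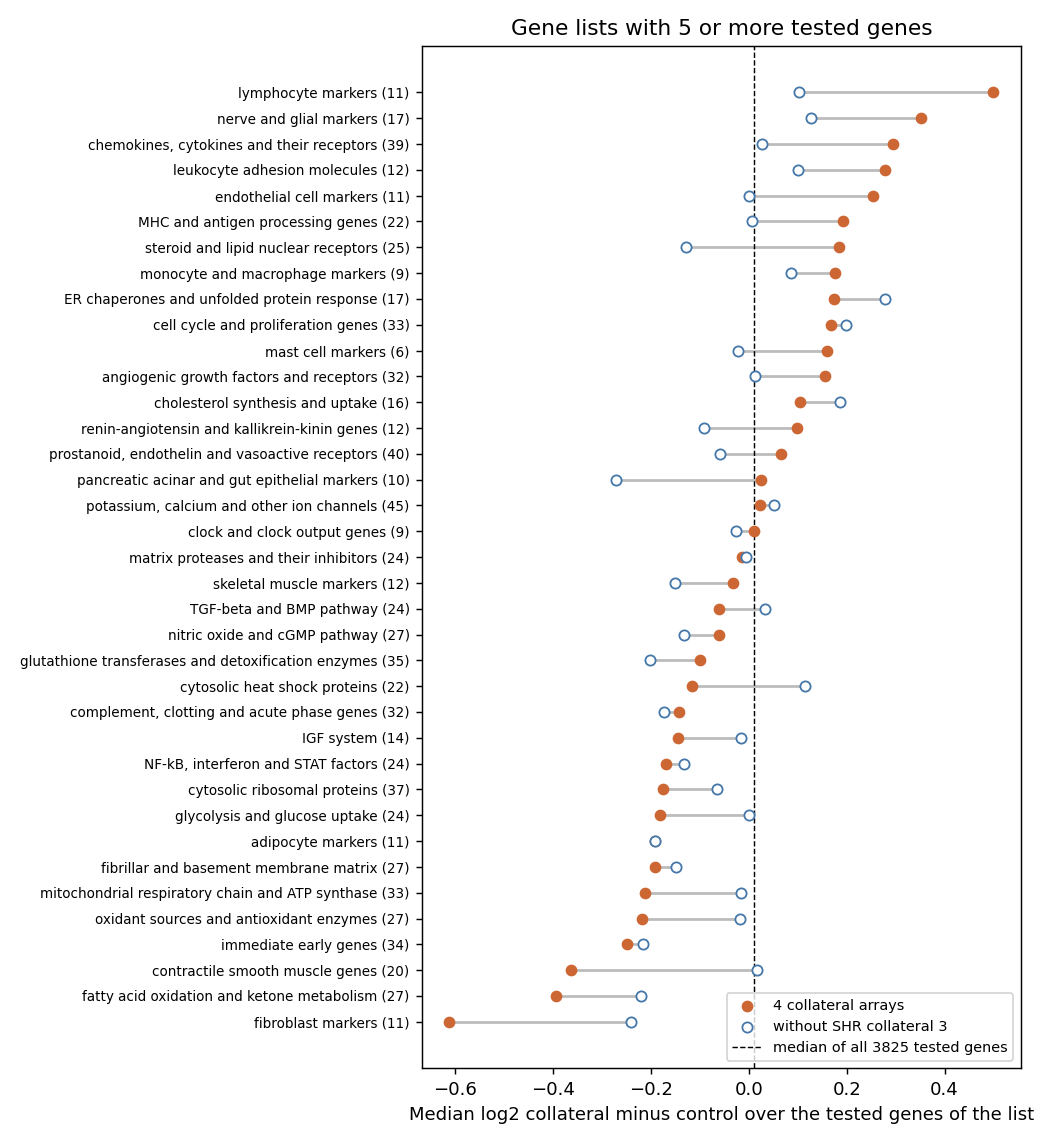
Median log2 collateral minus control over the tested genes of each list with 5 or more of them (number in brackets), with all 4 collateral arrays (filled) and without SHR collateral 3 (open), beside the median of all 3825 genes (dashed). Fibroblast markers lie at -0.61 and -0.24, and contractile smooth muscle genes at -0.36 and 0.02.

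Markers of other cell types that a vessel segment could carry were read on the same arrays. Lymphocyte markers were above 0 for 10 of 11 members (median 0.50), and for 7 without SHR collateral 3 (median 0.10). Their summed signal was 2931 to 3831 on control arrays, 9920 on SHR collateral 3 and 2314 to 4123 on the other collaterals. The B cell gene Cd79b lay at 1.62 ± 0.71 (1.38 ± 0.77). Nerve and glial markers had medians of 0.35 and 0.13 over 17 members, with summed signals of 16832 to 28070 on control arrays, 29286 on SHR collateral 3 and 17409 to 22234 on the other collaterals. Among them the neuronal hydrolase Uchl1 lay at 1.10 ± 0.49 (0.64 ± 0.44), with its other probe set at 0.02 (0.29). Monocyte and macrophage markers were above 0 for 6 of 9 members (median 0.18), and for 5 without SHR collateral 3 (median 0.09). Their summed signal was 8815 to 51272 on control arrays, 34395 on SHR collateral 3 and 20781 to 27139 on the other collaterals. The lysozyme gene Lyz2 gave 34765, 5189, 8285 and 2611 in controls and 16729.9, 12119.9, 21062 and 12432 in collaterals, 0.94 ± 0.64 (0.78 ± 0.70), with the highest value on a control array.

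The remaining marker lists overlapped between groups in summed signal. Adipocyte markers had a median of -0.19 in both fits over 11 members, with summed signals of 9958 to 90938 on control arrays, 23791 on SHR collateral 3 and 11597 to 54266 on the other collaterals. The sums that follow are in the same order. The control arrays differed from each other in these markers by more than the groups did. Mast cell markers had medians of 0.16 and -0.02 over 6 members, with 4999 to 9323, 8361, and 5052 to 6684. Red blood cell markers had medians of 0.02 and -0.14 over 4 members, with 6184 to 29524, 12377, and 5600 to 11386. Skeletal muscle markers had medians of -0.03 and -0.15 over 12 members, with 7271 to 11274, 10543, and 8415 to 10503. Mesothelial markers had medians of -0.26 and -0.61 over 3 members, with 662 to 2184, 2838, and 524 to 1044. Pancreatic and gut epithelial markers had medians of 0.02 and -0.27 over 10 members, with 1847 to 3876, 5081, and 1825 to 2874. On the 8 arrays 0 of these markers were at the floor of 1, and Sele, Mcpt4, Krt19 and Cpb1 lay below the 20th percentile of the array on at least 4 of them. The part of these cell types in the gene differences above was not tested.

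The WKY comparison shares no array with the SHR comparison and was fitted in the same model. The test of the difference between the strains' collateral changes gave 0 of 6512 (0%) with limma at an adjusted p under 0.05 (smallest 0.999688). At an unadjusted p under 0.05 it gave 124, and 110 without SHR collateral 3, against 325.6 expected by chance. The genes given next were named by their SHR values, Dbp and Ccl2 also as fixed genes. WKY values nearer 0 than the SHR values are therefore to be expected from that choice. For Dbp the change was -2.76 ± 0.82 in SHR and -0.11 ± 0.88 in WKY, a difference of -2.65 ± 1.20 (-2.62 ± 1.26). Its other probe set gave -0.70 ± 0.82 in SHR and -1.10 ± 0.89 in WKY, a difference of 0.39 ± 1.21 (-0.34 ± 1.09). The Dbp probe sets thus did not show the same strain difference. Erbb2 stood at 1.58 ± 0.48 and -0.38 ± 0.52, a difference of 1.96 ± 0.70 (1.65 ± 0.67), and Nup98 at -1.51 ± 0.46 and 0.03 ± 0.49, a difference of -1.54 ± 0.67 (-1.69 ± 0.67). The other Nup98 probe sets gave strain differences on the other side of 0 with all arrays, 0.34 ± 0.91 (-0.22 ± 0.80) and 0.43 ± 0.43 (0.36 ± 0.41). The values lay close together in both strains for Dlk1, at 1.18 ± 0.40 and 1.04 ± 0.43, for Zfp36l1, at -0.70 ± 0.21 and -0.59 ± 0.23, and for Dcn, at -0.61 ± 0.29 and -0.58 ± 0.31. Ccl2 stood at 0.94 ± 0.43 in SHR and 0.95 ± 0.46 in WKY. Tgfb3 lay on opposite sides, at -0.79 ± 0.44 and 1.13 ± 0.47, a difference of -1.92 ± 0.64 (-1.46 ± 0.51). Fibroblast markers had a WKY median of -0.35, with 2 of 11 above 0, and immediate early genes one of -0.47, with 11 of 34 above 0. Contractile genes had a WKY median of 0.15 and ribosomal proteins one of 0.07, against -0.36 and -0.18 in SHR with all arrays and 0.02 and -0.07 without SHR collateral 3.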

How the data were processed

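Total RNA of the arteries was purified with a kit for fibrous tissue and labelled from small amounts, per the labels' protocols. The deposited values are signals, 1 per probe set and array, which the authors made with GCOS and MAS5, per the submitters' processing notes, which name no versions. The mean after trimming 2% was 981 to 993 on the 15 arrays, so the arrays had been scaled to 1 level before deposit. Such scaling ties bright and dim probe sets of an array together. Arrays give no read depth, and their number limits the precision.

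Signals were floored at 1 (12 of all values were lower) and taken to log2. No test included the 59 control probe sets of the array, and any other probe set was tested if it reached the 40th percentile of its own array on at least 3 of 15 arrays. Gene names came from the platform annotation, where 7006 probe sets had 1 symbol, 308 several and 1426 none, and 6985 symbols were matched by gene identifier to a RefSeq gene table with 0 differing. limma 3.58.1 in R 4.3.3 fitted a mean for each of 4 groups over all 15 arrays, with a variance trend (11 residual and 7.19 prior degrees of freedom), two-sided tests and Benjamini-Hochberg adjustment at 0.05. All results were refitted without SHR collateral 3. The code was tested on simulated data.

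Named genes were those without overlap between groups and with the smallest p (12 per direction, and 8 per direction without SHR collateral 3), up to 3 members per gene list, and a set of fixed genes; the text gives part of them. A list counts each gene once, by its brightest probe set, and no list was tested. The members and lists were chosen with earlier results of these data known. Alternatives were quantile normalization, equal medians, 64 added before log2, other filters, no trend, array weights, SHR arrays alone, replicate blocks, each array left out, a looser threshold and Welch's test without moderation. The combinations of a replicate block or array weights with SHR collateral 3 left out were added after seeing the data.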

Additional observations from a re-analysis of the deposited data

Results flagged for a closer look

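Of 184 groups of 4 arrays looked at, 12 held an array far from the other 3 by Dixon's criterion. By chance about 1 in 20, or 9.2, would be expected if the groups were independent. They reuse the same arrays, and many of the genes were named by their values, so 12 and 9.2 cannot be compared strictly. SHR collateral 3 was the array concerned in 6 of the 12. Its mean Spearman correlation with the other SHR arrays was 0.584. On that array Myh11 was lowest at 4334, Thra lowest at 462, Ccnd2 lowest at 2093, Atp5po lowest at 6156 and Nr0b2 highest at 1446. SHR collateral 4 was lowest for Slc22a13, at 194.0. Among the controls, SHR control 3 was lowest for Gng11 at 2875 and for Csn1s1 at 19.3, and highest for Ech1 at 6130. SHR control 2 was lowest for Pisd at 201 and SHR control 1 lowest for Tagln at 34306.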

How the results depend on the processing

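In limma 0 probe sets passed an adjusted p of 0.05 under each alternative run, and 0 at 0.10 and with Welch's test. The counts at an unadjusted p under 0.05, 135 higher and 110 lower, moved more. Higher counts were 211 without a filter, 57 with a 60th percentile filter and 233 with array weights, which also gave 233 lower. With the SHR arrays alone they were 83 higher and 52 lower, and 66 higher with SHR collateral 3 also left out. Welch's test gave 83 higher and 58 lower. The replicate number as a fixed block gave 87 higher and 76 lower, and 57 higher with SHR collateral 3 left out; as a random block it gave 176 and 147. Array weights without SHR collateral 3 gave 336 higher and 351 lower. Leaving out each array in turn gave 97 to 455 higher and 72 to 303 lower, with both maxima without SHR collateral 4, the lower count of 72 without SHR control 2 and 187 lower without SHR collateral 1. The labels share replicate numbers, and deviations of same-numbered SHR arrays correlated at 0.08, 0.06, 0.04 and -0.07. Those of differently numbered arrays correlated at -0.09 to 0.10. The same-numbered control gave the highest value for SHR collaterals 1, 2 and 3 and the lowest for SHR collateral 4. The correlation estimated for the random block was 0.09. The values are small, so the numbers are not shown to pair the samples.

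Apart from the fixed genes, the named genes were chosen by their values on these same arrays. A kept direction was therefore largely set by that choice. Of 88 named genes 84 kept their direction under each alternative. The exceptions were Myh11, which lay between -1.17 and 0.0017 with 1 array left out, at 0.14 with quantile normalization without SHR collateral 3, at 0.0017 on the SHR arrays without it and at 0.027 with a replicate block without it; Tagln, between -0.77 and 0.034 with 1 array left out and at 0.26, 0.034 and 0.095 in the same 3 settings; Acta2, at 0.023 with quantile normalization without that array; and Tnc, at -0.0063 with array weights without it. All 10 of these turns came with SHR collateral 3 left out. Of 819 list medians 31 moved by more than 1 SD, and 12 of 39 lists kept the sign of their median under each setting. That SD was the spread of a list's mean log2 signal within the SHR groups, with SHR collateral 3 included. The contractile median, -0.36 with that array and 0.02 without it, did not move by 1 such SD. The count of 31 is therefore no measure of how stable the medians were. Dim probe sets, near the 20th percentile of an array, limit what can be read from the higher genes.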
